A study of Mus musculus with 9 samples.

Results

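The genes of MHC class II presentation were followed across 9 expression arrays of mouse pre-B cells, precursors of B lymphocytes. The family was taken as 10 genes: H2-Aa, H2-Ab1 and H2-Eb1, which encode class II chains, H2-DMa, H2-DMb1, H2-DMb2, H2-Oa and H2-Ob, which encode chains of the peptide-exchange proteins, the invariant chain gene Cd74, and Ciita, the class II transactivator. Its members on the array were all probe sets whose single annotated gene symbol was 1 of these. That rule found 19 probe sets for 9 of the 10 genes, among 45037 probe sets tested and 18193 genes with a probe set of their own. H2-DMb1 had no probe set of its own and was read only together with its close relative H2-DMb2, by 2 shared probe sets that were kept out of the counts.

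All 9 arrays came from cells of the genotype IRF4,8 -/-, which lack 2 transcription factors of the interferon regulatory factor family. There were 3 groups of 3 arrays: cells in high IL-7 (labelled 5 ng), cells in low IL-7 (labelled 0.25 ng), and cells in high IL-7 into which IRF4 had been put back. IL-7 is a cytokine that keeps B cell precursors alive and dividing. The labels give the amount per ml in one place and per µl in another, so no concentration is stated. The sources used here do not give how IRF4 was put back, and no mock-handled group was analysed, so the factor and its delivery cannot be told apart. Since nothing says that the arrays of a group were separate cultures, p-values measure only the spread between these arrays, which may be technical.

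Class II molecules are pairs of an alpha and a beta chain that carry peptides from endosomes to the surface of B cells, dendritic cells and macrophages, where CD4+ T cells read them. The invariant chain fills the groove of newly made class II molecules until proteases cut it down, H2-DM then exchanges the remaining fragment for peptide, and H2-O restrains H2-DM, mostly in B cells. Class II promoters share an X box, bound by the RFX complex and CREB proteins, and a Y box, bound by NF-Y. CIITA is recruited to these factors and is the switch for most class II genes. Precursors of B cells in the mouse carry little class II on their surface and gain it as they mature.

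The members share these promoter elements to different degrees, and the stretches are shown because the members that share them did not change alike. The supplied RefSeq promoter table (GRCm38.p6) held 7 of the 10 genes, and the 250 bases before each start were searched on both strands for GNAAC, a core of the X box, and TGATTGG, a core of the Y box, with 18 to 30 bases between them. These letters and spacings were chosen with the members' sequences in view. The pair was found in 5 of the 7 genes, and in 97 of all 32851 promoters, which is 0.295%. TGATTGG alone was in 7.23% of all promoters and GNAAC alone in 79.6%. The stretches are given 5′ to 3′ along the gene, with the cores in capitals: both in the 5 genes that hold the pair, and TGATTGG alone in H2-DMb2, shown beside its relative H2-DMb1.

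H2-Aa, chr17:34287857-34287914, minus strand: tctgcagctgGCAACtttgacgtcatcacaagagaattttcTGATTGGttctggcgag
H2-Eb1, chr17:34305766-34305822, plus strand: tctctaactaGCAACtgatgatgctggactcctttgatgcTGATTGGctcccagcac
H2-Ob, chr17:34238808-34238862, plus strand: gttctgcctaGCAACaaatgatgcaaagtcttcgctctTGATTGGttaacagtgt
H2-Oa, chr17:34092293-34092350, plus strand: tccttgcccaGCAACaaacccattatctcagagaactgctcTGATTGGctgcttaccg
H2-DMb1, chr17:34153087-34153144, plus strand: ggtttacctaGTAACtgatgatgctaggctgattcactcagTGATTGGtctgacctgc
H2-DMb2, chr17:34145116-34145173, plus strand: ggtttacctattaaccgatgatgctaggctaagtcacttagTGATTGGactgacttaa

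The Y core of H2-Oa began 45 bases before the start, and those of H2-Aa, H2-Ob, H2-Eb1 and H2-DMb1 began 50, 59, 61 and 63 bases before it. The cores were 26 bases apart in H2-Aa, H2-Oa and H2-DMb1, 25 in H2-Eb1 and 23 in H2-Ob. H2-DMb2 had the Y core, 92 bases before its start, without GNAAC at the searched spacing, and the 2 entries of H2-DMa had no TGATTGG in the window. GGAANNGAA is a composite of ETS and IRF half-sites, and GAAANNGAA is the core of an interferon response element. They were in 6.99% and 7.13% of all promoters and in no window of these 7 genes. At such shares, a set of so few windows would often hold no match. Cd74, H2-Ab1 and Ciita were not searched. All matches given here are of letters in a short window and say nothing about binding.

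The label of the IRF4 group was first checked against Irf4 itself. Its dimmer probe set (1421174_at) read 381, 202 and 261 intensity units in high IL-7, 316, 270 and 257 in low IL-7, and 1088, 1379 and 2543 with IRF4, so the 3 IRF4 arrays stood above all others. Its brighter probe set (1421173_at) fell by 0.40 on the log2 scale with IRF4 (limma adjusted p = 0.0438). Where these probe sets lie relative to the deleted parts is not known here, and they are no check of the knockout. Array medians ranged from 139.7 to 151.3 intensity units, and replicate arrays correlated with r from 0.986 to 0.996. All 10 measured B-lineage precursor genes, among them Cd79a, Pax5 and Vpreb1, had a mean intensity at or above the 40th percentile.

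In the arrays with IRF4 put back, class II chains and the invariant chain were higher, and H2-DM was so on some of its probe sets. Among the 19 probe sets, 11 rose and 0 fell against high IL-7 at an adjusted p under 0.05 (limma, Benjamini-Hochberg over all probe sets), while 0.953% of all probe sets rose and 0.711% fell. At an unadjusted p under 0.05, 16 rose and 0 fell. All 19 changes were above 0, with a median of 0.93 on the scale of log2(intensity + 16), against a median of -0.00405 over all probe sets. In 16 of them the 3 IRF4 arrays lay above the 3 high IL-7 arrays without overlap, which was so for 8.47% of all probe sets. By the brightest probe set of each gene, 5 of 9 genes rose (Cd74, H2-Aa, H2-Eb1, H2-DMa and H2-Ab1), against 1.24% of all genes raised and 0.627% lowered. Since these are arrays of bulk RNA, more cells expressing a gene and more RNA per cell cannot be told apart.

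**Figure D1:**
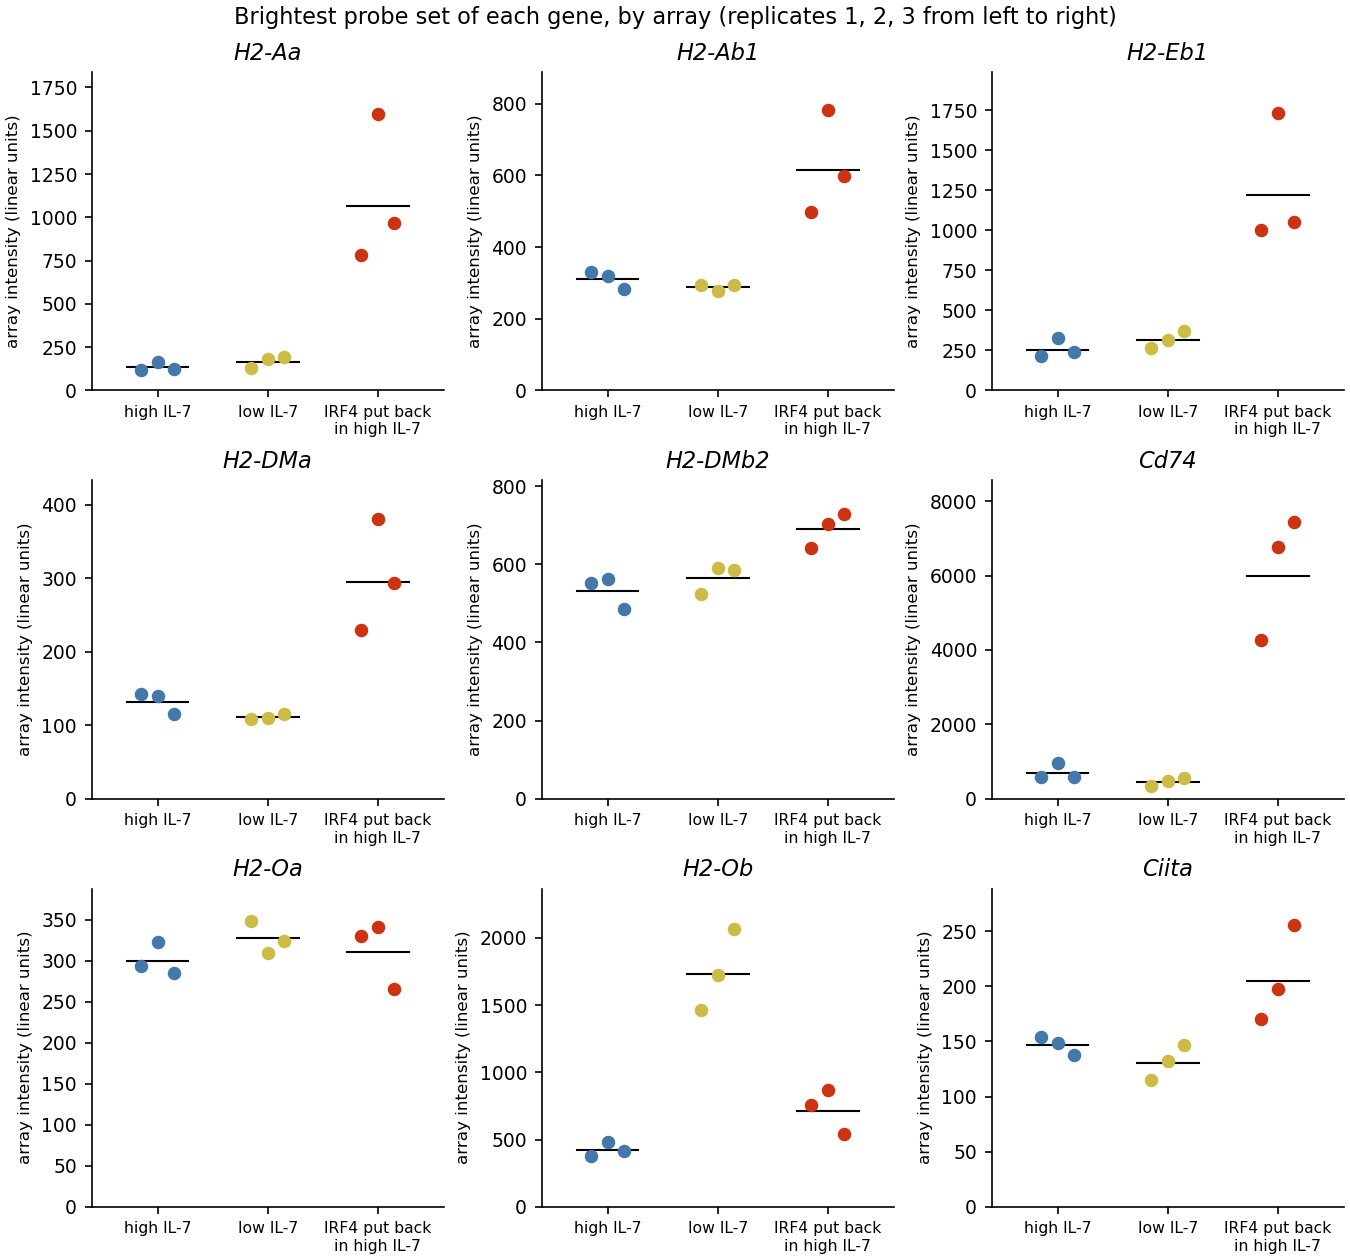
Intensity (linear units, axes from 0) of the brightest probe set of each of the 9 measured genes, with 1 point per array and a bar at the mean of the log2 values turned back to intensity, n = 3 arrays per group. For H2-Aa, H2-Ab1, H2-Eb1, H2-DMa, Cd74, H2-DMb2 and Ciita the 3 IRF4 arrays stand above the other 6. The changes of H2-DMb2 and Ciita against high IL-7 were smaller and were not called. For H2-Ob the 3 low IL-7 arrays stand above the other 6, and for H2-Oa the groups overlap.

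Cd74, whose product escorts class II molecules and fills their groove, had the largest change of the family. Its probe set (1425519_a_at) read 580, 959 and 585 intensity units in high IL-7 and 4279, 6778 and 7427 with IRF4. The lowest IRF4 array was thus well above the highest high IL-7 array. On the log2 scale the level was 9.46 ± 0.41 (SD, n = 3) in high IL-7 and 12.55 ± 0.43 after IRF4 had been put back. The rise was 3.09 (SE 0.24, 8.54-fold, limma adjusted p = 6.44e-05).

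H2-Aa encodes the alpha chain of the I-A molecule. Its brightest probe set (1435290_x_at) read 116, 166 and 124 in high IL-7 and 782, 1597 and 970 with IRF4, with no overlap. The rise was 2.85 (SE 0.23, 7.23-fold, limma adjusted p = 7.59e-05). Its 3 other probe sets also rose, by 2.62, 1.97 and 1.28, with adjusted p from 0.000166 to 0.00342. The smallest of these rises came from a dim probe set (1443783_x_at, at the 3.79th percentile of mean intensity), and its size depended on the added constant: it was 2.18 with 1 and 0.59 with 64 in place of 16. The suffixes x and s mark probe sets whose probes may also read related transcripts.

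H2-Ab1, which encodes the beta chain paired with H2-Aa, changed less on these probe sets. Its brightest probe set (1451721_a_at) read 331, 320 and 284 in high IL-7 and 498, 782 and 598 with IRF4, again with no overlap. It rose by 0.95 (SE 0.14, 1.93-fold, limma adjusted p = 0.00631). The other 2 probe sets rose by 0.90 and 0.93 (adjusted p = 0.00699 and 0.00971), and the second of these (1425477_x_at) was not called in a fit of the 6 arrays alone (adjusted p = 0.0607). The 3 probe sets of H2-Ab1 thus lay between 0.90 and 0.95, a narrower range than the 1.28 to 2.85 of H2-Aa.

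H2-Eb1 encodes the beta chain of the I-E molecule. It read 213, 326 and 240 in high IL-7 and 1003, 1731 and 1052 with IRF4, and the groups did not overlap. Its rise was 2.19 (SE 0.21, 4.56-fold, limma adjusted p = 0.000264). H2-Ea, the alpha chain gene of I-E, and H2-Eb2, a relative of H2-Eb1, are not members here. The RefSeq table lists H2-Ea as a transcribed pseudogene, so its signal need not be that of a working gene. On their brightest probe sets H2-Ea and H2-Eb2 changed by 0.04 and 0.22 (limma adjusted p = 0.931 and 0.496). The 3 H2-Ea arrays with IRF4 read 271 to 291, within the 218 to 304 of high IL-7.

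H2-DMa and H2-DMb2 encode the alpha and a beta chain of the peptide exchanger. H2-DMa (1422527_at) read 142, 139 and 115 in high IL-7 and 230, 380 and 293 with IRF4. All 3 IRF4 arrays lay higher, and the rise was 1.08 (SE 0.15, 2.11-fold, limma adjusted p = 0.00341). A dimmer H2-DMa probe set (1459872_x_at) changed by 0.14 (95% confidence interval -0.05 to 0.33, adjusted p = 0.569).

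The probe sets of H2-DMb2 disagreed. The 1419744_at probe set read 110, 101 and 95.8 in high IL-7 and 199, 290 and 220 with IRF4. It rose by 1.08 (SE 0.14, 2.11-fold, limma adjusted p = 0.00198). The brightest one (1443687_x_at) read 552, 563 and 486 against 642, 705 and 729, a change of 0.37 (95% confidence interval 0.14 to 0.59) that did not pass the test (adjusted p = 0.119). The IRF4 arrays were the higher 3 on both, so the probe sets differed in size and in call. Another (1443686_at), designed to the same source sequence as the brightest, changed by 0.36 (adjusted p = 0.155), and both passed the test when arrays were weighted by their quality (adjusted p = 0.0267 and 0.0170). Of the probe sets shared by H2-DMb2 and H2-DMb1, 1449580_s_at rose by 0.85 (adjusted p = 0.00703) and 1418638_at changed by 0.33 (adjusted p = 0.194). No value here belongs to H2-DMb1 alone.

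H2-Oa and H2-Ob encode the alpha and beta chain of H2-O, the protein that restrains H2-DM. H2-Oa read 293, 322 and 286 in high IL-7 and 330, 341 and 266 with IRF4, so the groups overlapped. Its change was 0.05, with a 95% confidence interval from -0.19 to 0.29 (limma adjusted p = 0.909). H2-Ob (1440837_at) read 377, 482 and 416 in high IL-7 and 759, 866 and 540 with IRF4. Its IRF4 arrays did not overlap with high IL-7, but the change of 0.72 (SE 0.18, 95% confidence interval 0.34 to 1.11) did not pass the test (adjusted p = 0.0757). It did so without IRF4 replicate 3 (0.91, adjusted p = 0.0267) and with arrays weighted by quality (0.87, adjusted p = 0.00532).

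Ciita, the class II transactivator, did not pass the test on any of its 3 probe sets. The brightest (1421210_at) read 154, 148 and 138 in high IL-7 and 171, 198 and 255 with IRF4, 3 higher values without overlap. The change was 0.44 (SE 0.13, 95% confidence interval 0.16 to 0.73, limma adjusted p = 0.149), and without IRF4 replicate 1 it was 0.57 and called (adjusted p = 0.0446). It was also called with arrays weighted by quality (0.42, adjusted p = 0.0358). The other 2 probe sets changed by 0.30 and 0.24 (adjusted p = 0.275 and 0.427). Ciita is transcribed from several promoters with different first exons, and the sources used here do not say which transcripts these probe sets read.

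**Figure D2:**
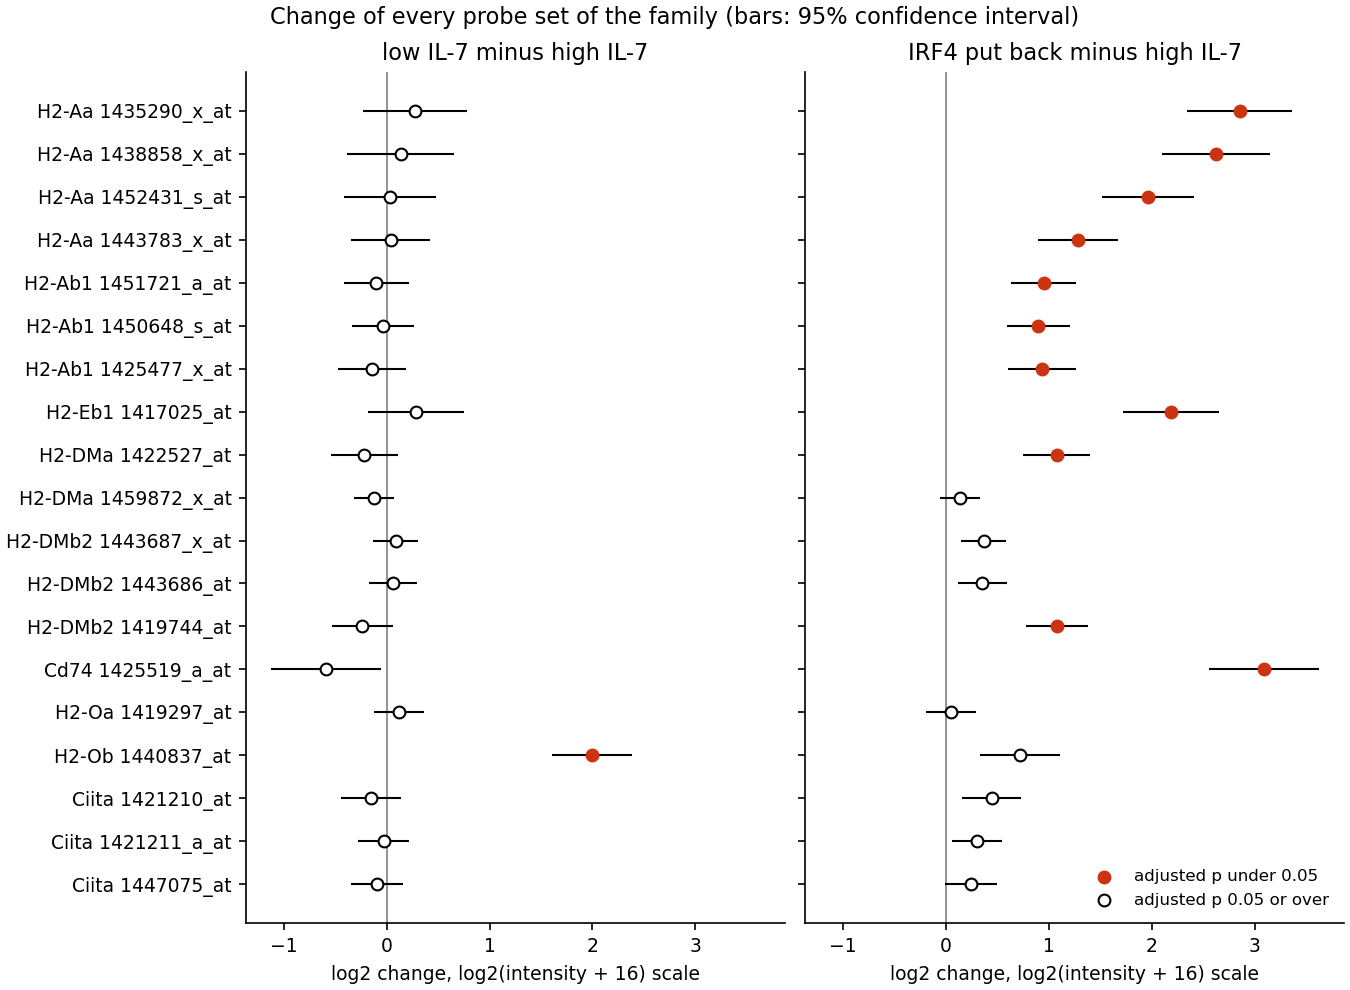
Log2 change of each of the 19 probe sets in low IL-7 (left) and with IRF4 put back (right), both against the same 3 high IL-7 arrays, with 95% confidence intervals from limma. Filled points have an adjusted p under 0.05: H2-Ob alone on the left, and 11 probe sets of H2-Aa, H2-Ab1, H2-Eb1, H2-DMa, H2-DMb2 and Cd74 on the right.

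Most members shared their highest or lowest array within a group, although probe sets of 1 gene are not independent. With IRF4, replicate 1 was the lowest of its 3 arrays in 17 of 19 probe sets, as in 35.5% of all probe sets. Replicate 2 was the highest in 12 and replicate 3 in 7, beside 30.6% and 39.9% of all. In high IL-7, replicate 2 was the highest in 13 (38.8% of all) and replicate 3 the lowest in 13 (29.7% of all), while replicate 1 was the highest in 6 and the lowest in 6. In low IL-7, replicate 3 was the highest in 12 (27.9% of all) and replicate 1 the lowest in 13 (37.3% of all). The dimmer Irf4 probe set was also lowest in IRF4 replicate 1, at 1088 intensity units, but highest in replicate 3.

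Lower IL-7 gave another picture. Of the 19 probe sets 1 rose, that of H2-Ob, and 0 fell against high IL-7 (limma), while 12.1% of all probe sets rose and 11.3% fell. At an unadjusted p under 0.05, 1 rose and 1 fell, the latter that of Cd74. Changes were above 0 in 9 and below 0 in 10, with a median of -0.03 against 0.02 over all probe sets. In 3 probe sets (of Cd74, H2-Ab1 and H2-DMa) the low IL-7 arrays all lay below the high IL-7 arrays, as in 17.4% of all probe sets. By the brightest probe set of each gene, 1 of 9 genes rose and 0 fell, against 12.6% raised and 13.5% lowered over all genes, so the count of raised genes was near the background.

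H2-Ob read 1461, 1722 and 2066 in low IL-7, above the 377 to 482 of high IL-7 and the 540 to 866 of the IRF4 arrays. It rose by 1.99 (SE 0.18, 3.98-fold, limma adjusted p = 1.11e-05). A second probe set (1422201_at), shared with the overlapping predicted gene Gm20506, read 410, 432 and 387 in high IL-7, 720, 746 and 801 in low IL-7 and 526, 530 and 524 with IRF4. Its rise in low IL-7 was 0.86 (limma adjusted p = 3.82e-05), and its change with IRF4 was 0.35 (adjusted p = 0.0924). Both probe sets placed the groups in the same order: high IL-7, IRF4, low IL-7.

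H2-Oa, its partner, read 349, 310 and 325 in low IL-7 and changed by 0.12 (95% confidence interval -0.12 to 0.36, limma adjusted p = 0.507). The 2 chains of H2-O therefore went separate ways in low IL-7 on these probe sets, although both promoters carry the pair of cores shown above.

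Cd74 was lower in low IL-7, at 352, 461 and 562, and just below the 580 to 959 of high IL-7 without overlap. The change was -0.59 (SE 0.24, 95% confidence interval -1.13 to -0.06), and it did not pass the test (limma adjusted p = 0.109). In fits with replicate numbers as a block it did pass, at an adjusted p of 0.0358 over all arrays and of 0.0230 in the 6 arrays of this comparison. High and low IL-7 arrays of the same number deviated together from their group means.

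The brightest probe sets of the class II chains overlapped between low and high IL-7. H2-Aa read 131, 180 and 190 in low IL-7 and changed by 0.27 (95% confidence interval -0.23 to 0.78, limma adjusted p = 0.465). H2-Eb1 read 268, 314 and 373 and changed by 0.29 (-0.18 to 0.76, adjusted p = 0.399), and H2-Ab1 read 293, 278 and 295 and changed by -0.10 (-0.41 to 0.21, adjusted p = 0.686). These intervals leave room for changes of up to 0.78 on the log2 scale. H2-DMa, at 108, 109 and 115, and Ciita, at 115, 132 and 146, changed by -0.22 and -0.15 (adjusted p = 0.349 and 0.481).

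Both comparisons above use the same 3 high IL-7 arrays, so the difference between the IRF4 and the low IL-7 effect is the comparison of those groups with each other. In it 13 of the 19 probe sets were higher with IRF4 and 1 was lower (limma, adjusted p under 0.05), against 10.7% and 14.0% of all probe sets. Cd74 was 3.69 higher with IRF4 than in low IL-7 (SE 0.24, 12.9-fold, adjusted p = 2.17e-06). H2-Aa was 2.58 higher, H2-Eb1 1.90, H2-DMa 1.29 and H2-Ab1 1.05, with adjusted p from 1.55e-05 to 0.000261. The difference was called for the brightest probe set of Ciita as well (0.60, SE 0.13, limma adjusted p = 0.00604). Its low IL-7 arrays, at 115 to 146, lay below its IRF4 arrays at 171 to 255. The dimmer Ciita probe sets were higher by 0.33 and 0.34 and were not called (limma adjusted p = 0.0526 and 0.0547).

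H2-Ob was the only probe set with the opposite sign and a call. It was 1.27 lower with IRF4 than in low IL-7 (SE 0.18, 2.41-fold, limma adjusted p = 0.000306). H2-Oa differed by -0.07 (adjusted p = 0.70). The weakest call was that of the dim H2-DMa probe set (1459872_x_at, 0.26, adjusted p = 0.047). It was lost in 10 alternatives: without a variance trend, in 6 arrays alone, and without any 1 of 8 arrays, all but IRF4 replicate 1 (adjusted p up to 0.154).

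By condition, the order for H2-Aa and H2-Eb1 was high IL-7, low IL-7, IRF4, and for Cd74, H2-Ab1, H2-DMa and Ciita it was low IL-7, high IL-7, IRF4. In each of these 6 genes the lower 2 groups did not differ by the test, but for Cd74 they did with replicate numbers as a block (adjusted p = 0.0358 over all arrays). The top group differed from both for all of them except Ciita. For Ciita it differed from low IL-7 only, and only on the brightest probe set. For H2-DMb2, on its brightest probe set, and for H2-Oa no pair of groups differed by the test. H2-Ob was the only gene whose low IL-7 arrays were above both other groups by the test, and its other 2 groups did not differ by it.

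The class II genes of chromosome 17 lie among other genes, which were set beside them. Of 22 neighbouring genes in the RefSeq table, 14 had a probe set of their own. Against high IL-7, 0 of the 14 were called in low IL-7 and 0 with IRF4 (limma), with medians of 0.00012 and 0.07. At an unadjusted p under 0.05, 2 and 1 passed, all below 0. Over all genes, 12.6% rose and 13.5% fell in low IL-7, and 1.24% rose and 0.627% fell with IRF4. H2-Ob lies between Tap2, a subunit of the class I peptide transporter whose change there was 0.27 (adjusted p = 0.495), and H2-Ab1, which changed by -0.10. Between the H2-DM genes and H2-Ob lie Psmb9, Tap1, Psmb8 and Tap2, genes of class I presentation, and with IRF4 they changed by 0.17, 0.42, 0.17 and -0.31, none of them called.

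**Figure D3:**
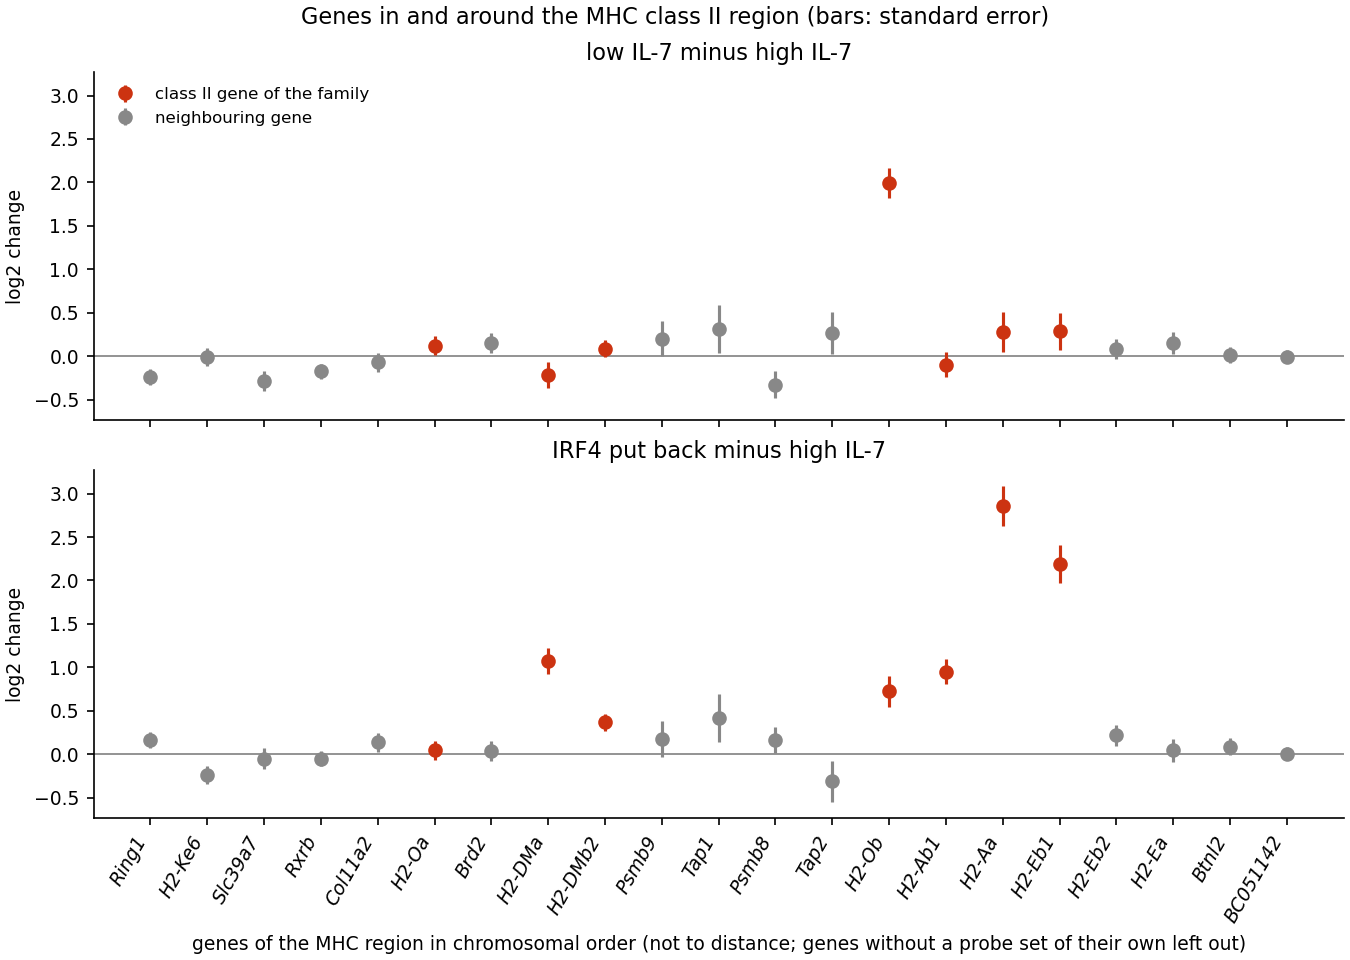
Log2 change (points) and standard error (bars) of genes in and around the class II region of chromosome 17 in gene order, not to distance, in low IL-7 (top) and with IRF4 (bottom), each against high IL-7 with n = 3 arrays per group. H2-Ob stands apart at 1.99 in the top panel, H2-Aa at 2.85 and H2-Eb1 at 2.19 in the bottom one, and no neighbouring gene was called in either.

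Of the factors that bind class II promoters or control Ciita, more passed the test in low IL-7, the comparison in which more of all genes did. In low IL-7, 15 of the 26 measured genes of this list rose and 1 fell, beside 12.6% and 13.5% of all genes, and the median change was 0.45, against 0.02 over all genes. The 15 include Irf4 and Irf8 themselves, the genes the cells are labelled as lacking, by 0.57 and 0.43 on their brightest probe sets (limma adjusted p = 0.000502 and 0.0433). Rfx5 and Rfxank, subunits of the X box complex, rose by 0.68 and 0.47 (limma adjusted p = 0.00238 and 0.0128), and Rfxap, the remaining subunit, changed by -0.08 (adjusted p = 0.675). Prdm1, a repressor of Ciita in plasma cells, rose by 2.86 (adjusted p = 2.95e-07). Smarca4, a chromatin remodelling ATPase, rose by 1.15 (adjusted p = 6.72e-06), Ebf1 by 0.67 (adjusted p = 1.47e-05), and Xbp1 fell by 1.30 (adjusted p = 1.46e-06). The NF-Y genes Nfya, Nfyb and Nfyc changed by -0.07, 0.30 and 0.03 and none was called.

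With IRF4, 1 of the same 26 genes rose and 1 fell, beside 1.24% and 0.627% of all genes, with a median of 0.08. The fall was that of the brighter Irf4 probe set. The rise was that of Spib, an ETS factor that binds DNA together with IRF4. Spib read 2482, 2643 and 1999 in high IL-7, 4361, 4459 and 4735 in low IL-7, and 5788, 7219 and 7281 with IRF4. The 3 groups did not overlap, and the changes against high IL-7 were 0.93 (limma adjusted p = 0.000101) in low IL-7 and 1.51 (SE 0.11, adjusted p = 4.88e-05) with IRF4. Rfx5, Rfxap and Rfxank changed by 0.11, 0.02 and 0.08 with IRF4 (adjusted p = 0.789, 0.957 and 0.849).

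Of 20 genes that process the invariant chain or set class II turnover, 1 rose with IRF4 and 0 fell, with a median of 0.11. These counts stand beside 1.24% raised and 0.627% lowered over all genes. The gene that rose was Ctss, cathepsin S, the protease that makes the last cut in the invariant chain. Ctss read 1038, 1201 and 841 in high IL-7, 559, 688 and 592 in low IL-7, and 2255, 2677 and 2590 with IRF4. Its rise with IRF4 was 1.29 (SE 0.14, limma adjusted p = 0.000475), in low IL-7 it fell by 0.72 (adjusted p = 0.00227), and no groups overlapped. Ifi30, a lysosomal thiol reductase, changed by 1.19 with IRF4 and was not called (adjusted p = 0.0983). In low IL-7, 3 genes of this list rose, Cd82 by 0.79, Lgmn by 0.67 and Lamp2 by 0.58, and Ctss was the 1 that fell, beside 12.6% and 13.5% of all genes. March1, the ligase that removes class II from the surface (listed as Marchf1), changed by 0.22 with IRF4 (adjusted p = 0.332). Its probe set was dim, at the 18.7th percentile of mean intensity, so the lack of a call says little. The related gene Marchf8, at the 71.8th percentile, changed by -0.67 with IRF4 and was not called (limma adjusted p = 0.0969). Between IRF4 and low IL-7 it was called lower with IRF4 (-0.53, limma adjusted p = 0.0451).

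Among 13 receptors of class II or invariant chain and costimulatory genes, 1 rose with IRF4 and 0 fell, beside 1.24% and 0.627% of all genes. In low IL-7, 2 of the 13 rose and 1 fell, near the 12.6% and 13.5% of all genes. Cxcr4, a chemokine receptor that can pair with CD74, rose by 1.17 in both (limma adjusted p = 0.00735 with IRF4 and 0.000616 in low IL-7). Mif, the secreted ligand of CD74, fell in low IL-7 from 11323 to 13569 down to 4413 to 6289 (a change of -1.20, adjusted p = 1.22e-05). With IRF4 its change was -0.10 (adjusted p = 0.761). Cd80, Cd86 and Cd40, which give T cells their second signal or receive their help, were not called in either comparison.

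Of 16 class I genes 0 were called with IRF4 (limma; 2 were higher at an unadjusted p under 0.05), beside 1.24% raised over all genes, and their median change was 0.08. In low IL-7, 4 of the 16 rose and 5 fell, beside 12.6% and 13.5% of all genes. Their median change there was 0.21. The 4 that rose were B2m, H2-K1, H2-D1 and Nlrc5, by 0.29, 0.35, 0.38 and 0.53 (limma adjusted p from 0.00597 to 0.0204). The 4 with the smallest adjusted p there were all falls. They were those of Canx, Calr and Pdia3, chaperones that help to load class I (-0.58, -0.84 and -0.89), and of Erap1, a peptidase that trims class I peptides (-0.83). Their limma adjusted p ran from 5.05e-05 to 0.00043. Cd1d1, a class I-like molecule that presents lipids and was listed here beside class II, rose there by 1.09 (adjusted p = 1.81e-05), with a change of -0.01 after IRF4 (adjusted p = 0.982).

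Dendritic cells and macrophages also express class II, so their markers were read beside these results. The labels name no sort. Over all genes, 1.24% rose and 0.627% fell with IRF4, to be set beside each count with IRF4 below. Among 10 dendritic cell genes, 1 rose with IRF4 (Ccr7, a chemokine receptor, 1.47, limma adjusted p = 0.000126) and 0 fell, with a median change of 0.03. No other of the 10 genes passed at an unadjusted p under 0.05. Their summed intensity was 1423 to 1553 in high IL-7, 1487 to 1583 in low IL-7 and 1691 to 1886 with IRF4. The 3 sums with IRF4 were thus above the other 6, and the part of dendritic cells in the members' rise was not tested. Of 14 macrophage and monocyte genes 0 were called with IRF4 (1 was higher at an unadjusted p under 0.05), with a median change of 0.01. Their sums were 1634 to 1698 in high IL-7, 1803 to 1927 in low IL-7 and 1630 to 1778 with IRF4. Outside that list, Cd36 and Cybb, which phagocytes express strongly, rose with IRF4. They were picked for their likeness to Cd74 over the arrays, so their rise is how they were found. Cd36 rose by 3.75 and 4.02 on its 2 probe sets (13.5- and 16.2-fold, limma adjusted p = 1.93e-07 and 1.32e-07). Cybb rose by 3.54 (11.7-fold, limma adjusted p = 0.000121). The part of phagocytes in the members' rise was not tested. Of 9 granulocyte and mast cell, 8 T and NK cell and 5 erythroid and megakaryocyte genes 0 were called with IRF4 (1, 1 and 0 lower at an unadjusted p under 0.05). The table has no detection calls, so no marker can be called absent.

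In low IL-7, Itgam and Lyz1 of the 14 macrophage and monocyte genes rose and Cd68 fell, beside 12.6% and 13.5% of all genes. The part of such cells in the H2-Ob result was not tested. The sum of 10 stromal genes ranged from 4882 to 25689 in high IL-7, from 2021 to 5760 in low IL-7 and from 2485 to 17720 with IRF4. In low IL-7, 0 of the 10 rose and 2 fell (Col3a1 and Pdgfra), beside the same shares of all genes. At an unadjusted p under 0.05, 7 were lower there, and the median change was -1.71. With IRF4 0 of the 10 were called, with a median change of -1.02. The IRF4 array with the highest stromal sum was replicate 1, the array in which most members were lowest of their group, and the high IL-7 array with the highest sum was replicate 2, in which most members were highest. The part of stromal RNA in the members' values was not tested. Without IRF4 replicate 1 the count of raised member probe sets was 12, against 11 with all arrays.

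The genes most like Cd74 and H2-Ob over the 9 arrays were ranked by the root mean square difference of profiles, each on the log2 scale and centred on its own mean, among 22719 probe sets of other genes. The nearest to Cd74 were Lsp1, a leukocyte actin-binding protein (0.246), Rnase6 (0.365), Cd36, a scavenger receptor (0.365 and 0.460 for its 2 probe sets), and Cybb, the catalytic subunit of the phagocyte oxidase (0.405). Lsp1 read 121, 224 and 139 in high IL-7, 113, 142 and 118 in low IL-7, and 933, 2124 and 1652 with IRF4. Within the family H2-Aa was nearest to Cd74 (0.524), then H2-Eb1 (0.764), and H2-Ob was farthest (2.05). These are descriptions over arrays that share their groups, and any gene with a large step in the IRF4 arrays comes out near Cd74.

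The nearest to H2-Ob were Laptm5, a lysosomal membrane protein of lymphoid cells (0.136), Tmem71 (0.172), Klhl24 (0.178), Hbp1, a repressor of cell cycle genes (0.195), and Ypel5 (0.196). Laptm5 read 1615, 2313 and 1940 in high IL-7, 7565, 8635 and 8953 in low IL-7, and 3672, 3248 and 2388 with IRF4, the same order of groups as H2-Ob. No member was as close to H2-Ob as these, which says little, since these were the nearest of 22719 probe sets and the members are few. Of the members H2-Oa was nearest, at 0.794, with a profile that changed little between groups.

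**Figure D4:**
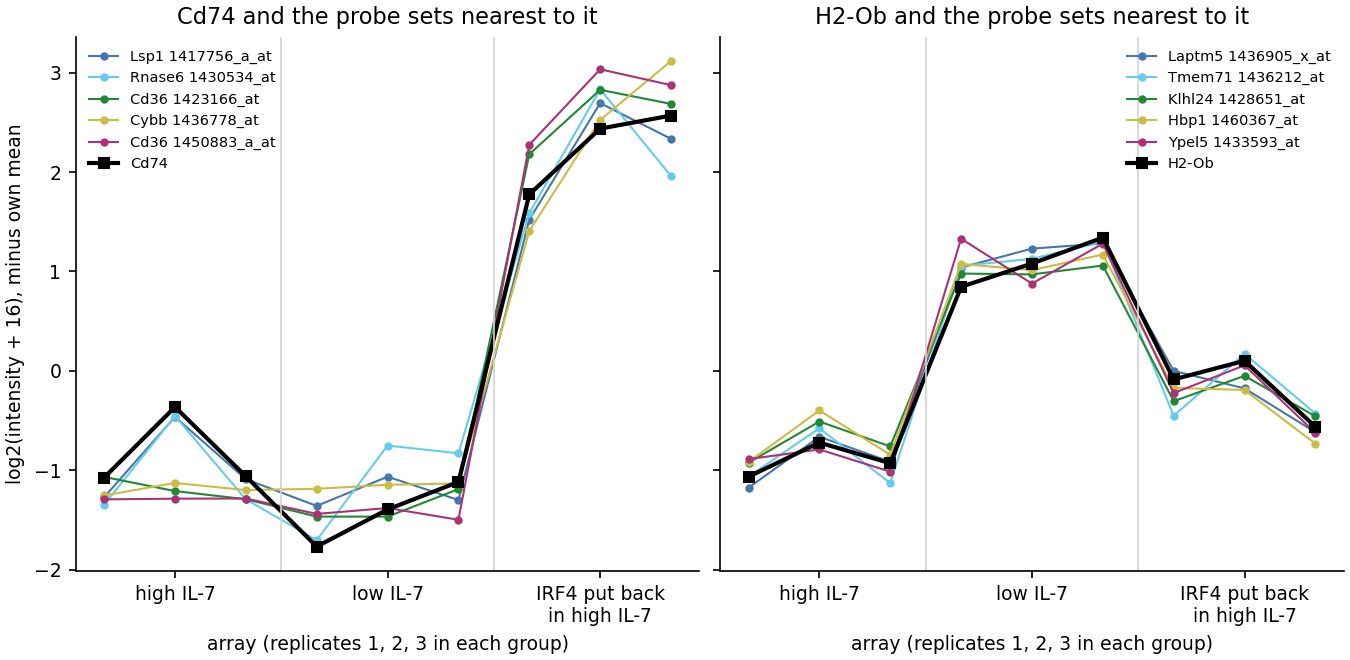
Profiles over the 9 arrays of Cd74 (left) and H2-Ob (right), in black, with the 5 nearest probe sets of other genes, each as log2(intensity + 16) minus its own mean; lines only join the points of a probe set. Cd74 and its neighbours step up in the 3 IRF4 arrays, and H2-Ob and its neighbours stand highest in the 3 low IL-7 arrays.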

How the data were processed

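The authors deposited 1 table of linear intensity values by probe set and array from Affymetrix mouse arrays hybridised with biotin-labelled total RNA, per the labels' protocols. Summarisation, scaling and software are not given in the sources used here. Groups and replicate numbers came from the sample titles. Of the probe sets, 64 controls were left out; 34945 others had 1 gene symbol, 932 several and 9160 none in the platform annotation. Values were taken as log2(intensity + 16), which understates changes of dim genes, with no further normalization. limma 3.58.1 in R 4.3.3 fitted group means over all 9 arrays (lmFit, eBayes with a trend) to all 45037 probe sets, and calls were made at a Benjamini-Hochberg adjusted p under 0.05. The number of arrays limits the precision.

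The members, gene lists and rules were chosen with earlier results of these data known. The brightest probe set of a gene leads. Other genes are named from the lists (up to 4 called genes per list and comparison by smallest adjusted p, and any on which a result turns: the subunits that bind the boxes shown, Irf4, Irf8, and both comparisons of a gene called in 1) or as the 5 probe sets nearest to Cd74 or H2-Ob at or above the 40th percentile of mean intensity (108). Named beside these were the class I genes that rose in low IL-7, and March1 and Marchf8. Alternatives were added constants of 1 and 64, a filter at that percentile, 1 probe set per gene, no trend, quantile or median scaling, array weights, 6 arrays only, a replicate block and leaving out each array.

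Same-numbered arrays of high and low IL-7 deviated together from their group means (r = 0.535, 0.353 and 0.19), so these numbers may mark pairs. However, high IL-7 replicate 2 correlated as well with low IL-7 replicate 3 (0.359). Of the 9 arrays, 0 correlated best with their own number in both other groups. The reported values come from the fit without that block; blocked values stand beside a result only where they change its call. IRF4 arrays did not deviate together with the same-numbered arrays of the other groups (r from -0.354 to 0.0106). The block over all arrays nevertheless includes them. The labels name no batch. Promoters and gene order came from RefSeq tables of GRCm38.p6. Plots used matplotlib 3.10.9 (Python 3.11.15).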

Additional observations from a re-analysis of the deposited data

How the results depend on the processing

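No member changed direction where it was called, under any alternative. Raised member probe sets with IRF4 against high IL-7 numbered 10 to 15 under the other settings (10 of 16 with the filter at the 40th percentile), and with 1 probe set per gene 5 of 9. Against low IL-7 they numbered 12 to 17, or 7 of 9 genes. Leaving out each array gave 11 to 12 raised and 0 lowered with IRF4 against high IL-7, 12 to 16 raised and 1 lowered against low IL-7, and 1 raised and 0 lowered for low against high IL-7. The replicate block gave 1 lowered probe set in low IL-7 in place of 0 (Cd74, -0.59), both over 9 arrays and in the 6 of that comparison, an alternative added after the data were seen. It turned 1 other member call, that of Ciita 1447075_at between IRF4 and low IL-7 (0.34, adjusted p = 0.0133). Scaling to the same median, quantile normalization and array weights added calls of Ciita or H2-DMb2 between IRF4 and low IL-7.

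The share of all probe sets called moved more. At or above the 40th percentile it was 1.58% raised and 1.18% lowered with IRF4, 18.3% lowered in low IL-7 and 17.2% raised between IRF4 and low IL-7, and with 1 probe set per gene 1.89%, 19.6% and 18.6% for those raised, lowered and raised. Array weights gave 2.45% and 2.2% with IRF4, the 6 arrays alone 0.588% and 0.222%. Without 1 array it was as low as 0.56% raised (without IRF4 replicate 2), and 0.202% (without IRF4 replicate 3) to 1.3% (without IRF4 replicate 1) lowered. Without detection calls, signal over background is unknown, and changes of dim probe sets (H2-Aa 1443783_x_at, Ciita 1447075_at) depend on the added constant.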
